A study of Rattus norvegicus with 311 samples.

Results

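Gemfibrozil is a fibrate, a lipid-lowering drug known to activate the nuclear receptor PPAR-alpha. The comparison described here set rat liver cell cultures given 1000 µM gemfibrozil against cultures given vehicle, both sampled on day 3 after plating, across all genes measured. The hepatocytes came freshly isolated from male Sprague Dawley rats of unmodified genotype as far as the labels say, and their age is not given in the sources used here. They were grown on collagen-coated multiwell plates, either alone (monoculture) or with non-parenchymal liver cells (co-culture), and the compound was added on the day before lysis. RNA was measured by TempO-Seq, in which short detector oligonucleotides are ligated on their target RNA and sequenced, so that each value is a count per probe. The comparison held 15 of the 311 libraries of the series, chosen by their labels alone. The 7 gemfibrozil libraries were 4 of monoculture, from plates 1, 3, 5 and 7, and 3 of co-culture, from plates 1, 5 and 7. The 8 vehicle libraries were 4 of each culture from the same 4 plates. A further 2 gemfibrozil libraries on plate 9, for which no vehicle library was analysed here, stayed outside the test. The labels call the replicates biological but do not say that they came from separate animals, so a p-value here speaks of the scatter among the libraries, part of which may be technical.

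PPAR-alpha pairs with RXR on DNA and, when bound by fatty acids or fibrates, turns on genes of fatty acid uptake, peroxisomal and mitochondrial fatty acid oxidation and ketone body synthesis. In rodent liver its activators are known for peroxisome proliferation, and genes of the Cyp4a family serve as its readouts. Liver cells also answer stress of the endoplasmic reticulum (ER) with a set of chaperone genes, and several kinds of stress with ATF4, CHOP (gene Ddit3) and their targets, together called the integrated stress response.

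Several libraries stood apart. The 15 libraries held 3392976 to 7346547 counts, and 8459 to 13696 probes had a count. On plate 7 both libraries labelled 1000 µM lay close to vehicle. Across the tested probes their log2 CPM (counts scaled to the library total) correlated with the vehicle library of their own plate and culture at r = 0.957 in monoculture and 0.923 in co-culture, against 0.799 to 0.843 in the other 5 pairs. The monoculture 1000 µM library of plate 3 and the monoculture vehicle library of plate 1 had the lowest median correlation with the other libraries, at 0.753 and 0.833. Treated libraries had TMM scaling factors of 1.04 to 1.24 and vehicle libraries 0.764 to 1.02, and the 10 most abundant probes took 11.6 to 14% of the counts in treated and 13.7 to 18.9% in vehicle libraries. The part of these depth and library differences in the results was not tested beyond the settings given beside them. Among libraries used for the other doses and for GW7647, a synthetic PPAR-alpha agonist, 3 went against their labels or stood apart. The co-culture library labelled 100 µM of plate 3 had values like those of the 1000 µM libraries, with Ddit3 at 1070 CPM where the other 7 libraries at 100 µM on plates with vehicle had 53.3 to 160. The co-culture library labelled GW7647 1 µM of plate 3 had Cyp4a2 at 0 CPM where the other 6 had 151 to 1290. The monoculture 10 µM library of plate 7 differed from its vehicle by more than 1 log2 unit at 5922 tested probes, against 2749 to 4047 in the other 7 libraries at 10 µM. At the probes called higher and lower at 1000 µM its median log2 difference from vehicle was 1.41 and -1.33, where the other 10 µM libraries had -0.43 to 0.77 and -0.50 to 0.11, and the monoculture 1000 µM library of the same plate 0.40 and -0.30. No library was relabelled.

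Of 10652 probes with enough counts to test, 822 (7.72%) were called higher and 1134 (10.6%) lower with gemfibrozil at an adjusted p under 0.05 (edgeR quasi-likelihood test, Benjamini-Hochberg adjustment, culture and plate as blocks). Their log2 difference had 1 sign in all 7 pairs of treated and vehicle library for 375 of the higher and 711 of the lower probes. For 36 higher and 109 lower probes the groups did not overlap at all. The median log2 fold change over all tested probes was 0.12. Without plate 7, 864 of 10922 probes (7.91%) were called higher and 1203 (11%) lower. Of the original calls 616 and 1002 were among them. Calls were fewest without plates 1 and 5. Without plate 1, 320 probes were called, 88 and 228 of them shared, and without plate 5, 158, 34 and 124 of them shared. Without any 1 of the 4 plates, no called probe that could still be fitted changed sign. Plate 7 alone held 1 treated and 1 vehicle library of each culture. There, 111 of the 743 higher probes that could be fitted and 144 of 1129 lower ones had the opposite sign. DESeq2 called 1707 higher and 1481 lower.

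**Figure D1:**
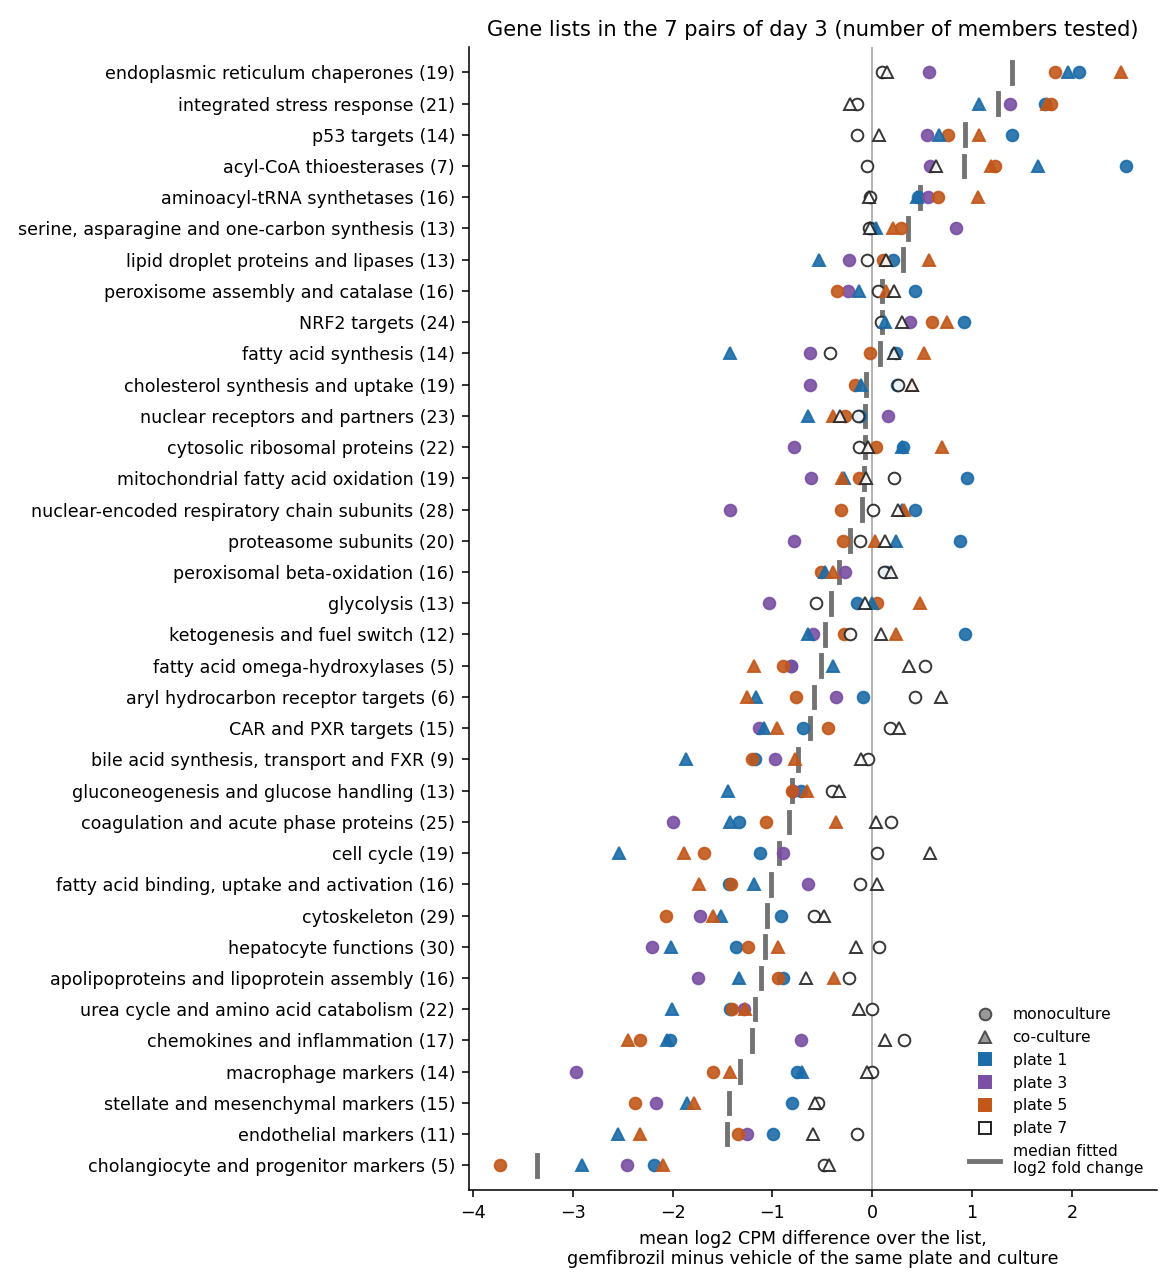
Each point is the mean log2 CPM difference of the tested genes of a list between a gemfibrozil 1000 µM library and the vehicle library of its own plate and culture (circles monoculture, triangles co-culture, open symbols plate 7), and the grey bar is the median fitted log2 fold change of the list. The chaperone and integrated stress response lists had medians of 1.40 and 1.26, hepatocyte, cytoskeleton and cell-type marker lists lay below 0, and the open plate 7 symbols lie nearer 0 than the rest in most lists.

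Many ER chaperone genes rose, and their promoters are shown first because a shared sequence element is known for this group. The ER stress response element was searched as CCAAT, any 9 bases, then CCACG, on both strands of the 250 bases before each start site. This element was chosen after the values were seen. It was found at 6 of the 10 called-higher chaperone genes with a promoter in the reference, at 2 of 5 in the list that were not called (Canx and Xbp1), and in 22 of 33469 promoters (0.0657%). The windows below, from RefSeq promoters of build GRCr8, are written 5′ to 3′ along the gene's strand, with the element in capitals. They lie at chr3:38452948-38453015 (+) for Hspa5, chr7:23012426-23012494 and chr7:23012322-23012390 (-) for the pair of matches at Hsp90b1, chr19:40213117-40213178 (+) for Calr, chr15:102432509-102432577 (+) for Dnajc3, chr7:121789214-121789282 (+) for Creld2 and chr20:12766576-12766644 (-) for Derl3.
Hspa5: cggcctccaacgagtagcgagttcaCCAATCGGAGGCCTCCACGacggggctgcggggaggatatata
Hsp90b1, far match: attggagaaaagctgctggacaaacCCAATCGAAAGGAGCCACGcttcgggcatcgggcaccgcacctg
Hsp90b1, near match: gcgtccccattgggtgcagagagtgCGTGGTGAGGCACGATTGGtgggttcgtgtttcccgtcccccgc
Calr: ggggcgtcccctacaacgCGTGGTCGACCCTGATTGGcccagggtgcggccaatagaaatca
Dnajc3: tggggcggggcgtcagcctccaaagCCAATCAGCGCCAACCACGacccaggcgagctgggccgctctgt
Creld2: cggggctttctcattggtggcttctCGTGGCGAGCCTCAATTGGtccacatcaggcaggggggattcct
Derl3: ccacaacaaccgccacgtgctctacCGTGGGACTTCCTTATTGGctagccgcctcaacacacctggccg

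For the integrated stress response the CARE element, bound by ATF4 with a C/EBP partner, was searched as TGATGNAA on both strands in the same windows. It was found at 4 of 12 called-higher genes of the stress response, amino acid synthesis and tRNA synthetase lists, at 3 of 17 not called, at 0 of 1 lower, and in 3.4% of all promoters. The matches lie at chr3:161275534-161275579 (-) for Trib3, chr3:126795939-126795996 (+) for Chac1, chr1:105221487-105221544 (-) for Fgf21 and chr19:10614859-10614916 (-) for Herpud1, with the element in capitals below. A match describes the letters and is no evidence of binding.
Trib3: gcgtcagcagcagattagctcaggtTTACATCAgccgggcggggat
Chac1: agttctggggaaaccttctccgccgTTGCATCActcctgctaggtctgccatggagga
Fgf21: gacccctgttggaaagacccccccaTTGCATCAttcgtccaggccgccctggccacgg
Herpud1: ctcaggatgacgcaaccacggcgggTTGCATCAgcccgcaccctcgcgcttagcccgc

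Of 19 tested genes of the ER chaperone and quality-control list, 12 rose and none fell, with a median log2 fold change of 1.40 against 0.12 for all probes. Among all probes 7.72% were called higher and 10.6% lower. Hspa5, which encodes the central ER chaperone BiP, ran from 13.4 through a median of 158 to 271 CPM in the 7 treated libraries and from 11.5 through 16.2 to 25.1 in the 8 vehicle libraries. Its 2 low treated values were those of plate 7, inside the vehicle range, and the other 5 lay above all vehicle libraries. Hspa5 rose by 2.29 ± 0.47 on the log2 scale (SE, adjusted p = 0.00413) and by 3.12 without plate 7 (adjusted p = 1.49e-05). Hsp90b1, the ER member of the HSP90 family, had 346, 2360 and 3160 CPM as lowest, median and highest treated value against 339, 406 and 694, and it rose by 1.70 ± 0.34 (adjusted p = 0.00345). Creld2, a secreted disulfide isomerase-like protein, had 79.8, 299 and 492 CPM against 59.7, 72.2 and 112, with a log2 fold change of 1.67 ± 0.28 (adjusted p = 0.00135). Dnajc3, a BiP co-chaperone that also restrains the kinase PERK, had 81.3, 261 and 849 CPM against 27.0, 92.5 and 139 (1.82 ± 0.31, adjusted p = 0.00145). In these genes the treated libraries reached well above vehicle but overlapped it through plate 7.

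The same list holds genes that dispose of misfolded ER proteins. Sel1l and Syvn1, subunits of the ER ubiquitin ligase, rose by 1.66 ± 0.35 and 1.17 ± 0.28, and Derl3, a channel component of the same route, by 3.92 ± 1.09 from a vehicle median of 0.184 CPM to 16.7. Hyou1, Ero1l, Calr and Pdia6 rose by 1.72, 1.72, 0.87 and 0.71. The list's 7 genes that were not called included Canx (0.78 ± 0.27, adjusted p = 0.0581), Edem1 (0.74), Xbp1 (0.21) and P4hb (0.01). Without plate 7 the list had 12 higher genes and a median of 2.16. Without plate 1 it had 2, Creld2 and Dnajc3 (adjusted p = 0.0449 and 0.0413), and without plate 5 it had 0, with medians of 1.09 and 1.06. With the number of detected probes as a covariate 6 were called.

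Of 21 tested genes of the integrated stress response, 12 rose and none fell (median 1.26), beside 7.72% and 10.6% of all probes. Ddit3, which encodes the transcription factor CHOP, had a lowest, median and highest value of 49.1, 878 and 1390 CPM with gemfibrozil and 63.1, 110 and 188 in vehicle. The treated values of plate 7, 49.1 in monoculture and 118 in co-culture, lay within or below the vehicle range, and all others lay above it. Ddit3 rose by 2.46 ± 0.47 (adjusted p = 0.00275) and by 3.27 without plate 7 (adjusted p = 6.29e-06). Its adjusted p was 0.0613 without plate 1 and 0.0702 without plate 5. Sesn2, a stress-induced inhibitor of mTORC1 signalling, had 8.28, 39.4 and 62.9 CPM against 5.80, 7.68 and 14.4 and rose by 1.75 ± 0.36. Ppp1r15a (GADD34), the phosphatase subunit that reverses eIF2-alpha phosphorylation, went from a vehicle median of 571 to 2150 CPM, with a log2 fold change of 1.31 ± 0.35. Herpud1, a target shared with the ER list, went from a median of 685 to 2980 (1.40 ± 0.35). The secreted factors Gdf15 and Fgf21 rose by 1.61 ± 0.37 and 1.67 ± 0.40, from medians of 144 to 536 CPM and 11.4 to 59.2 CPM.

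The transcription factors Atf4 and Atf3 rose by 0.70 ± 0.21 and 0.93 ± 0.32, and both calls were lost when any of 9 single libraries was left out. Trib3, a pseudokinase induced by CHOP, rose by 1.08 ± 0.26. Asns, which makes asparagine, rose by 2.12 ± 0.52 and the cystine transporter Slc7a11 by 3.29 ± 0.93, both at low counts (highest treated values 47.5 and 15.6 CPM). The other members at adjusted p above 0.05 included Slc7a5 (1.26), Slc7a1 (0.84), Atf5 (0.35) and Ddit4 (0.08). The list had 14 higher genes without plate 7, and 0 without plate 1 or without plate 5, with medians of 1.05 and 0.94. It had 7 without plate 3, and 6 without the monoculture 1000 µM library of plate 3 and the monoculture vehicle library of plate 1. On plate 7 alone, with 1 treated and 1 vehicle library of each culture, the direction differed for several members. Ddit3 had -0.18, Trib3 -0.27, Herpud1 -0.65 and Ppp1r15a -0.75. Neighbouring lists moved less, and their counts stand beside 7.72% of all probes called higher and 10.6% called lower. Of 16 aminoacyl-tRNA synthetases 3 rose, Wars (1.33 ± 0.30), Eprs (1.03 ± 0.25) and Farsb (1.00 ± 0.23), and of 13 genes of serine, asparagine and one-carbon synthesis Asns rose and Gpt2 fell by 1.01 on the log2 scale. Both lists had 0 calls without plate 1 or without plate 5.

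**Figure D2:**
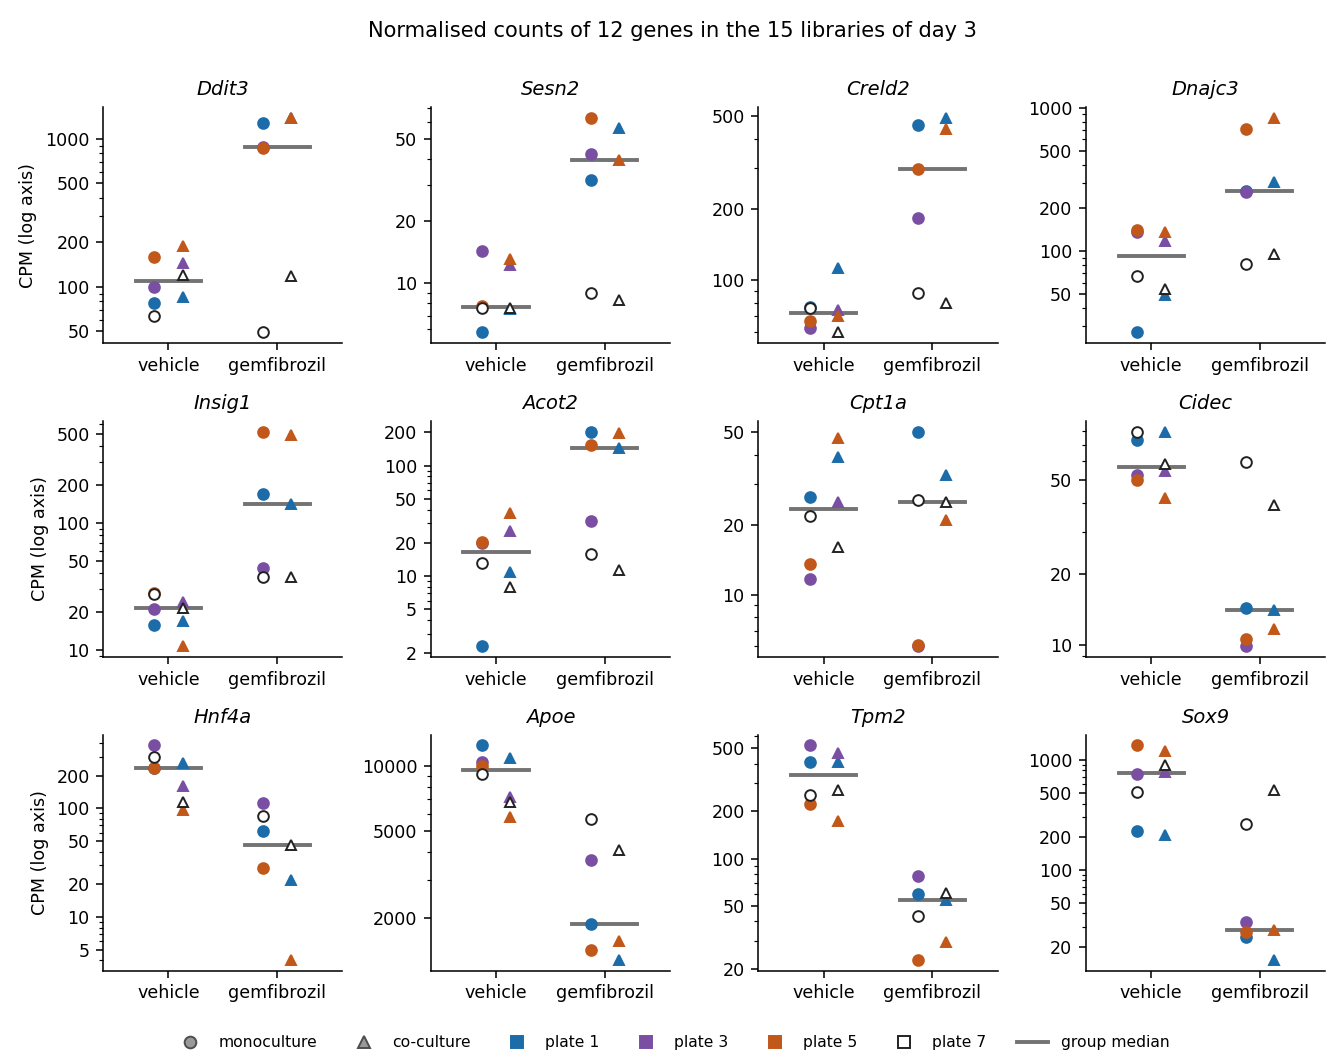
CPM (log axis) of 12 genes in each of the 7 gemfibrozil 1000 µM and 8 vehicle libraries, with circles for monoculture, triangles for co-culture, open symbols for plate 7 and a bar at the group median. For Ddit3, Sesn2, Creld2 and Dnajc3 the open treated symbols sit with vehicle, whereas for Tpm2 all treated libraries, plate 7 included, lie between 22.8 and 77.2 CPM and below all vehicle libraries (173 to 521).

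Of 83 tested genes in 7 lists of fatty acid metabolism and lipid droplets, 7 rose (8.43%) and 15 fell (18.1%), beside 7.72% and 10.6% of all probes, so the share that rose was near that of all probes. Nudt19, a peroxisomal CoA diphosphatase, had 46.7, 95.5 and 258 CPM as lowest, median and highest treated value and 32.1, 59.9 and 80.2 in vehicle, so the groups overlapped. It rose by 0.77 ± 0.23 (adjusted p = 0.0311), higher in 6 of 7 pairs, and had an adjusted p of 0.18 without plate 1 and 0.274 without plate 5. Of the 16 tested genes of peroxisomal oxidation, 2 rose, Nudt19 among them, and 4 fell: Acaa1b, a peroxisomal thiolase, by 0.84, Phyh, which starts alpha-oxidation, by 0.85, Pecr by 0.98 and Ech1 by 0.60 on the log2 scale. The list's median was -0.34, and it had 0 calls without plate 1 or without plate 5. The peroxisome assembly list had no call among 16 genes (median 0.10).

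Acyl-CoA thioesterases were the oxidation-related list with the highest median, 0.92 over 7 tested genes, of which 2 rose. Among all probes 7.72% were called higher. Acot2, the mitochondrial enzyme, had 11.4, 144 and 203 CPM against 2.32, 16.5 and 36.9 and rose by 2.16 ± 0.56 (adjusted p = 0.0152). Acot1, its cytosolic paralog, was near 0 in vehicle (0 to 0.359 CPM) and had 0.141, 2.21 and 32.6 with gemfibrozil (adjusted p = 0.00929), so that its fitted fold change depends on the prior count, and its reads may be shared with near-identical paralogs. Pdk4, which blocks pyruvate oxidation during fasting, had 0 to 10.7 CPM treated, 0 in the monoculture library of plate 7, against 0 to 2.87 (adjusted p = 0.0145). The calls of Acot1 and Acot2 were lost without plate 1 or plate 5, and that of Pdk4 without plate 5 (adjusted p = 0.132).

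Beside the counts of this paragraph, 7.72% of all probes were called higher and 10.6% lower. The shares called lower in the mitochondrial and fuel-switch lists were near that of all probes. Of 19 genes of mitochondrial fatty acid oxidation none rose and 3 fell: Eci1, an enoyl-CoA isomerase, by 0.83 (adjusted p = 0.0145), Acadm, the medium-chain acyl-CoA dehydrogenase, by 0.71 (adjusted p = 0.0488), and Acadl by 0.46 on the log2 scale. On plate 7 alone Acadm differed by 0.0003 only. Cpt1a, the gate of mitochondrial fatty acid entry, had 6.00, 25.2 and 50.4 CPM against 11.7, 23.4 and 47.4 (-0.28 ± 0.37, adjusted p = 0.63). Of 12 genes of ketogenesis and fuel switch 3 rose, Pdk4, Fgf21 and Hilpda, and 1 fell, Bdh1, a dehydrogenase of ketone body synthesis, by 1.89 ± 0.52 (median -0.47). Of 16 genes of fatty acid binding, uptake and activation none rose and 4 fell: Acsm1 by 2.44 ± 0.46, Fabp7 by 2.16 ± 0.46, Fabp4 by 1.68 and Fabp2 by 2.60. The mitochondrial and the uptake list had 0 calls without plate 1 or without plate 5. Fabp1, the main liver fatty acid binding protein, had -1.12 ± 0.60 (adjusted p = 0.197), Cd36 0.65 (adjusted p = 0.678) and the omega-hydroxylase Cyp4a2 0.60 ± 0.49 (adjusted p = 0.402). Ppara itself was at -0.08 (adjusted p = 0.841). Cyp4a1, Ehhadh and Pex11a did not pass the filter on low counts. A direct repeat of the receptor's binding motif, DR1, searched as AGGNCA, 1 base, AGGNCA on both strands, was found in none of 6 higher and 12 lower lipid genes with a promoter, in 1 of 51 not called (Fabp1), and in 0.368% of all promoters.

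The cultures given 1 µM GW7647 show the same genes with another PPAR-alpha agonist on the same day. The doses of gemfibrozil and GW7647 are not matched, and both are compared with the same vehicle libraries, so their responses are set side by side. Cyp4a2 had a log2 fold change of 6.19 with GW7647 and 0.60 with gemfibrozil, Fabp1 4.80 and -1.12, and Eci1 1.36 and -0.83. The peroxisomal oxidation list had a median of 0.80 with GW7647, mitochondrial oxidation 0.62, ketogenesis and fuel switch 1.18, against -0.34, -0.09 and -0.47 with gemfibrozil. The chaperone and stress lists had medians of 0.01 and -0.06 with GW7647.

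Tested directly between 7 gemfibrozil and 7 GW7647 libraries, 1013 of 11147 probes (9.09%) differed, 393 higher and 620 lower with gemfibrozil. Cyp4a2 was lower with gemfibrozil by a log2 difference of -5.66 ± 0.59 (adjusted p = 7.7e-06), Eci1 by -2.16 ± 0.23 (adjusted p = 7.7e-06) and Acaa2, a mitochondrial thiolase, by -2.32 (adjusted p = 1.76e-05). Fabp1 differed by -5.82 ± 0.72. In the fatty acid lists 9 of 19 mitochondrial, 7 of 16 peroxisomal, 9 of 16 uptake and 6 of 12 fuel-switch genes were lower with gemfibrozil, and 1 was higher, Nudt19. Acot2 differed by 0.69 (95% interval -0.37 to 1.75, adjusted p = 0.457), so differences of the size of these bounds were not excluded. Of the chaperones 11 of 19 and of the stress response 10 of 21 were higher with gemfibrozil, Ddit3 by 3.04 ± 0.45 (adjusted p = 0.000346). Without the co-culture GW7647 library of plate 3, 716 probes were called (283 and 433), with Cyp4a2 at -5.95, Fabp1 at -6.24 and Ddit3 at 2.85, all at adjusted p under 0.05. The count was 7 without plate 1 and 33 without plate 5.

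**Figure D3:**
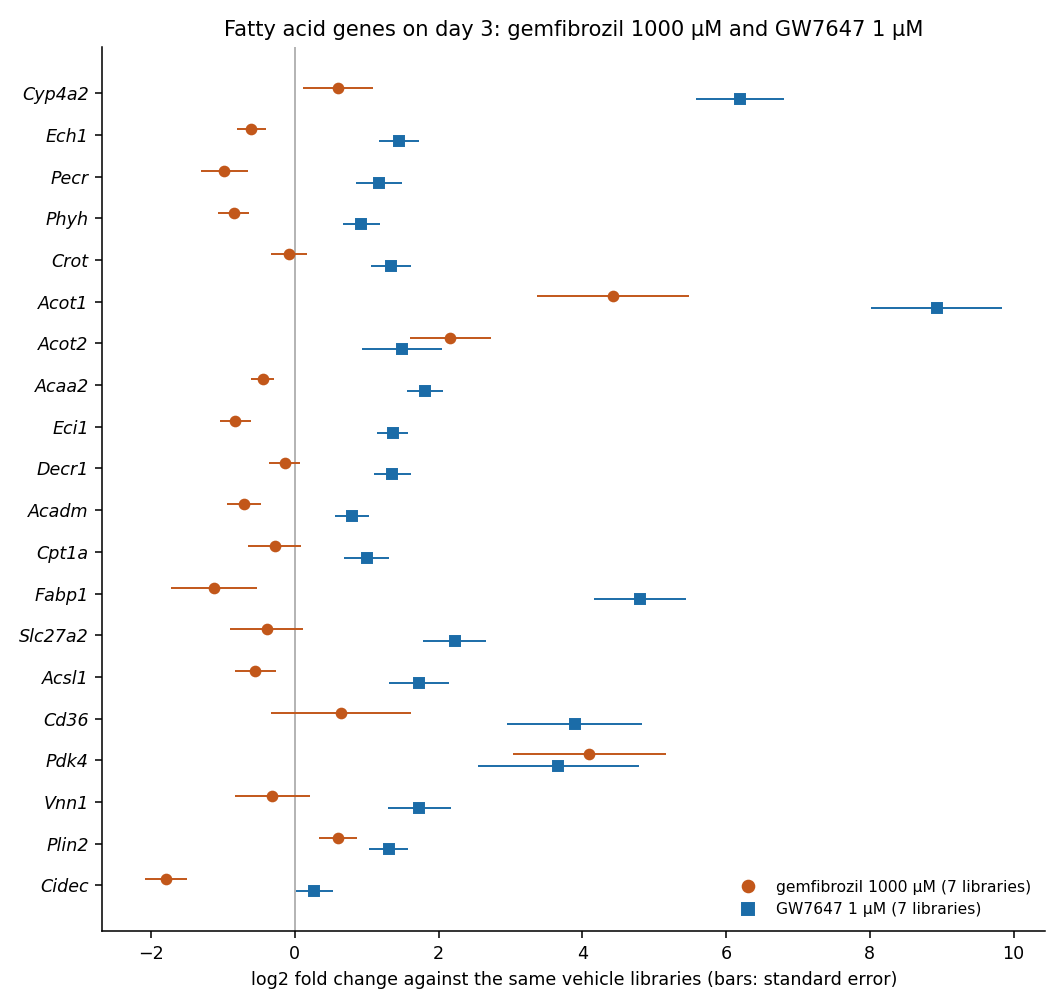
Fitted log2 fold change against the shared vehicle libraries for gemfibrozil 1000 µM and GW7647 1 µM, on day 3, for 20 genes of fatty acid metabolism, with 7 libraries each (circles gemfibrozil, squares GW7647) and bars for the standard error. Every square lies above 0, as Cyp4a2 at 6.19 and Fabp1 at 4.80, while most circles lie near or below 0, as Cyp4a2 at 0.60 and Fabp1 at -1.12.

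Among lipid droplet genes Cidec and Cideb, which promote fusion of droplets and loading of lipoproteins with lipid, fell. Cidec had 9.92, 14.1 and 59.1 CPM against 41.7, 56.4 and 79.6, and only the plate 7 libraries (59.1 in monoculture, 39.2 in co-culture) were near vehicle. Its fold change was -1.79 ± 0.29 (adjusted p = 0.00122), and the call held without each plate in turn (adjusted p at most 0.0499). Cideb fell by 1.48 ± 0.25. Hilpda, an inhibitor of the triglyceride lipase ATGL, rose by 1.05 ± 0.27, and Plin2, a coat protein of droplets, had 0.60 ± 0.26 (adjusted p = 0.123) and 0.93 without plate 7 (adjusted p = 0.0437). The list had 1 higher and 2 lower of 13 genes, beside 7.72% and 10.6% of all probes. It had 4 higher and 2 lower without the monoculture 1000 µM library of plate 3 and the monoculture vehicle library of plate 1.

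Of 19 tested genes of cholesterol synthesis and uptake 1 rose and 2 fell, beside 7.72% and 10.6% of all probes. Insig1, which retains the SREBP complex in the ER, had 37.3, 140 and 523 CPM in treated and 10.7, 21.2 and 28.0 in vehicle libraries. All treated libraries, plate 7 included, lay above all vehicle libraries, and the rise was 2.52 ± 0.52 (adjusted p = 0.00431). Srebf2, the transcription factor of cholesterol synthesis, had 98.8, 213 and 266 CPM against 273, 347 and 450, again with no overlap, and fell by 0.95 ± 0.18 (adjusted p = 0.00257). Both calls were lost without plate 1 (adjusted p = 0.0891 and 0.0549) and without plate 5 (adjusted p = 0.0634 and 0.0735). None of the synthesis enzymes tested was called, nor were the regulators Srebf1 (0.16) and Insig2 (0.35), and in the 14 genes of fatty acid synthesis Scd1 and Fads1 fell by 1.14 and 2.47. The sterol element TCACNCCAC was in none of the promoters of this list and in 0.974% of all.

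Hepatocyte genes were lower as a group: of 30 tested, 14 fell and none rose (median -1.07), beside 10.6% and 7.72% of all probes. Hnf4a, the transcription factor that maintains the hepatocyte programme, had 4.02, 45.9 and 113 CPM with gemfibrozil and 96.7, 237 and 380 in vehicle. The lowest vehicle value, in the co-culture of plate 5, was below the highest treated one, in the monoculture of plate 3. Within each pair the treated library was lower, which was a condition of the rule that named the gene. Hnf4a fell by 2.47 ± 0.33 (adjusted p = 0.000496), kept its call without each plate, and fell by 1.56 on plate 7 alone. Albumin (Alb) had 1260, 1680 and 4720 CPM against 2770, 3590 and 5980 and fell by 1.04 ± 0.26 (adjusted p = 0.0129), with adjusted p of 0.186 without plate 1 and 0.0871 without plate 5. Transthyretin (Ttr) fell by 1.09 ± 0.22. The summed CPM of the 33 measured hepatocyte genes was 10900 to 25600 in the 5 treated libraries of plates 1, 3 and 5, 36200 and 61400 on plate 7, and 40400 to 104000 in vehicle. In bulk libraries fewer cells of a type and less RNA per cell cannot be told apart. The list had 18 lower of 31 genes without plate 7, but 1 without plate 1 (Hnf4a) and 3 without plate 5 (Hnf4a, Apoa1 and Apoc3).

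Secreted hepatocyte products fell along with it. Among all 10652 probes 10.6% were called lower, and 109 were lower without overlap of the groups. Apoe, the apolipoprotein of remnant particles, had 1280, 1870 and 5720 CPM against 5790, 9550 and 12400, without overlap, and fell by 1.89 ± 0.28 (adjusted p = 0.000837). Mttp, which loads lipid onto apolipoprotein B, had 6.86, 19.0 and 30.5 CPM against 43.4, 57.5 and 64.6, also without overlap, and fell by 1.48 ± 0.26. Both calls held without each plate. In all 8 of 16 apolipoprotein and assembly genes fell, among them Apoa1 (by 1.80), Apoa5 (by 1.64), Apoc3 (by 1.24) and the hepatic lipase Lipc (by 1.26). Of 25 coagulation and acute phase genes 14 fell and none rose, including the fibrinogen chain Fga (by 3.10 ± 0.69), protein C (Proc, by 2.00 ± 0.34), factor XI (F11, by 1.37 ± 0.27, without overlap) and haptoglobin (Hp, by 1.65). On plate 7 alone Fga was higher, by 0.50, in a fit with 1 treated and 1 vehicle library of each culture. Proc and F11 without plate 1 (adjusted p = 0.0224 and 0.0355), and Proc alone without plate 5 (adjusted p = 0.0497), kept their calls in this list. The list had 10 lower genes without plate 3 and 9 without the monoculture 1000 µM library of plate 3 and the monoculture vehicle library of plate 1.

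Genes of nitrogen and sugar metabolism followed. Beside the counts given here, 10.6% of all probes were called lower and 7.72% higher. Of 22 urea cycle and amino acid genes 9 fell and none rose, among them Otc (by 2.58), Arg1 (by 1.84), glutamine synthetase Glul (by 1.21 ± 0.23) and tryptophan dioxygenase Tdo2 (by 3.54 ± 0.88), and none of the calls held without plate 1 or without plate 5. Of 13 gluconeogenesis genes 6 fell, including Pck1 (by 1.57 ± 0.33) and Pygl (by 0.81), and 2 rose, Igfbp1 (0.72), an insulin-like growth factor binding protein, and Ppp1r3c (1.22). This list had 0 calls without plate 1 or without plate 5, and 4 lower and 0 higher without the monoculture 1000 µM library of plate 3 and the monoculture vehicle library of plate 1. Among nuclear receptors and partners 5 of 23 fell, among them Hnf4a, Nr0b2 (SHP, by 3.33 at low counts), Nr1i2 (PXR, by 0.78) and Rxra (by 0.59), while Rora rose by 1.2. This list's median was -0.07. Fgfr4, the hepatocyte receptor for the bile acid hormone FGF15, fell by 2.31 ± 0.50, and 3 of 9 bile acid genes fell in all. Of 15 targets of the drug receptors CAR and PXR 4 fell, Akr7a3 by 1.11 ± 0.22 with the smallest p. Cyp7a1, Cyp2b2 and Cyp3a23/3a1 were below the count filter.

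The largest share of calls in any list of over 5 genes was in the stellate and mesenchymal and the cytoskeleton lists, at 11 of 15 and 20 of 29 lower. Among all probes 10.6% were called lower. Tpm2, a tropomyosin of actin filaments, had the smallest p of all named genes. It had 22.8, 54.6 and 77.2 CPM with gemfibrozil against 173, 339 and 521, with plate 7 at 43.6 and 60.4, and fell by 2.69 ± 0.17 (adjusted p = 1.22e-07). It was called without each plate and fell by 2.33 on plate 7 alone. Calponin 1 (Cnn1), an actin-binding protein, had 1.81, 6.61 and 14.3 CPM against 21.0, 40.9 and 102 and fell by 2.87 ± 0.36. Tpm1 fell by 2.29 ± 0.29, Cnn2 by 1.44 ± 0.24, Acta2 (smooth muscle actin) by 3.89 ± 0.78, the hepatocyte keratin Krt8 by 2.21 ± 0.36 and vimentin (Vim) by 2.02 ± 0.38. Non-overlapping members were Tpm2, Cnn1, Cnn2 and Acta2, beside 109 of all 10652 probes that were lower without overlap. Beta-tubulin Tubb2b fell by 2.80 and Tuba1b by 1.11, whereas Vcl (-0.21), Tln1 (0.30) and Tubb4b (-0.15) were not called. The cytoskeleton list had 19 lower genes without plate 7, 11 without plate 1 and 7 without plate 5. The CArG box, the site of serum response factor, was searched by its name's consensus on both strands, a choice made after the values were seen, and was found in 1 of 17 lower genes with a promoter (Cnn2) and in 1.5% of all promoters.

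Matrix genes carried by stellate cells in liver fell in this comparison. Col3a1 had 2.88, 12.5 and 16.8 CPM against 12.6, 52.2 and 140 and fell by 2.24 ± 0.31 (adjusted p = 0.000603), a call kept without each plate. Col6a1 fell by 2.20 ± 0.41, the crosslinking enzyme Loxl1 by 2.25 ± 0.44 and Tgfb1 by 1.84. The summed level of the 24 stellate markers measured, 1 of them at 0 in all 15 libraries, was 398 to 1360 CPM in treated libraries of plates 1, 3 and 5, 2840 and 3130 on plate 7, and 1300 to 3600 in vehicle. Much of the vehicle sum (median 2930 CPM) was Fn1, which was not called. In the scaling that included plate 9, the vehicle median of Fn1 was 1770 CPM. The list had 3 lower genes without plate 1 and 1, Col3a1, without plate 5.

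Markers of other cell types of liver were measured beside these. Among all 10652 probes 10.6% were called lower, and 109 were lower without overlap of the groups. The 20 macrophage markers summed to 49.1, 189 and 317 CPM as lowest, median and highest treated value and 153, 341 and 742 in vehicle, and 6 of 14 tested fell, among them Cd5l (by 2.75), Lyz2 (by 1.32) and the scavenger receptor Cd163 (by 2.03). In vehicle these markers summed to 153 to 651 CPM in monoculture and 299 to 742 in co-culture, so that the cultures labelled as hepatocytes alone also carried them. The 18 endothelial markers summed to 28.3, 90.3 and 125 CPM against 106, 202 and 331, with 4 of 11 lower, Esam (by 1.46 ± 0.26) without overlap of the groups. Macrophage and endothelial markers each had 1 lower gene without plate 1 and 0 without plate 5. The 11 cholangiocyte and progenitor markers, 1 of them at 0 throughout, summed to 37.4, 64.6 and 591 against 341, 856 and 1410. Sox9, a transcription factor of biliary cells, had 15.1, 28.2 and 527 CPM against 209, 760 and 1350, the high treated values being those of plate 7, and fell by 3.54 ± 0.57 (adjusted p = 0.00129), a call kept without each plate. The lymphocyte list had 1 tested gene, Cd4 (fell by 1.82), and 7 of its 14 measured markers at 0. The neutrophil and erythroid list had none tested, 5 of 9 markers at 0, and sums of 0 to 2.70 CPM. The part of changed cell composition in the other results was not tested.

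Growth and damage genes gave a mixed picture. The counts that follow stand beside 7.72% of all probes called higher and 10.6% called lower. Of 14 p53 targets 7 rose, including Cdkn1a (0.91 ± 0.26), a cell cycle inhibitor, Mdm2 (1.08 ± 0.24) and the kinase Plk2 (1.06 ± 0.23), while the apoptosis effector Bax fell by 1.04 ± 0.20 (adjusted p = 0.00261). Sesn2 and Gdf15 stand in this list and in the stress response. None of the 7 higher calls was made without plate 1 or without plate 5. Of 19 cell cycle genes 4 fell, Ccnd1 (cyclin D1) by 3.17 ± 0.55, Top2a by 3.21, Rrm2 by 3.48 and Rrm1 by 0.94. Among 24 NRF2 targets 4 rose, Srxn1 (2.31 ± 0.53), Hmox1 (2.24), Slc7a11 and Prdx1 (1.58), and the list's median was 0.10. The cell cycle and NRF2 lists had 0 calls without plate 1 or without plate 5. Its antioxidant element TGACNNNGC was in 1 of 3 higher and 3 of 15 not called genes with a promoter and in 10.1% of all. Of 17 chemokine and inflammation genes Cxcl10 rose by 2.51 and 4 fell, Ccl2 by 4.92 and Cxcl16 by 1.89 ± 0.33 among them. Ccl2 had 0 to 641 CPM in treated and 47.1 to 483 in vehicle libraries, and its highest value was that of a treated library. Glycolysis had 4 lower and 1 higher of 13 genes, Pfkl (by 0.90) and Eno1 (by 0.79, without overlap) among the lower, the proteasome 4 lower and 1 higher of 20, Psma7 (by 0.73) among the lower, and the respiratory chain 3 lower of 28, Sdha (by 0.68), Sdhc (by 0.85) and Ndufa9 (by 1.28). These 3 lists had 0 calls without plate 1 or without plate 5. The share of respiratory chain genes called lower was near that of all probes. Of 22 ribosomal protein genes and of 6 aryl hydrocarbon receptor targets none was called.

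The genes with the highest fold changes that also moved 1 way in all pairs were mostly of low abundance. Yod1, a deubiquitinase of ER-associated degradation, had 8.72, 16.8 and 76.7 CPM against 0, 4.45 and 8.35, without overlap, and rose by 3.11 ± 0.58 (adjusted p = 0.00261). Cngb1 (4.45 ± 0.95) and Wdr66 (3.87 ± 0.62) rested largely on the monoculture library of plate 3, with 72.8 and 107 CPM where the other treated libraries had at most 24.7 and 9.52. Others were Dcbld2 (2.65), the NKG2D ligand gene Raet1l (2.60) and Mdn1 (2.57), a ribosome assembly factor. At the low end Lmcd1, a LIM domain protein, had 0 to 7.38 CPM against 22.8 to 77.4, without overlap, and fell by 3.95 ± 0.58, a call kept without each plate. Villin (Vil1) fell by 3.95, dihydropyrimidinase (Dpys) by 3.80, the chemokine Cxcl3 by 3.69, Anxa13 by 3.67 and Afap1l1 by 3.61.

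Lower doses on day 3 showed little of this. At 100 µM 1 of 11818 probes (0.00846%) was called, Cyp4a2, and at 10 µM none (0%), where 1001 and 1226 had an unadjusted p under 0.05 and DESeq2 called 30 and 150. Cyp4a2 had 146 CPM in the monoculture of plate 1 and 129 in its co-culture at 100 µM, 34.3 and 112 on plate 5, and 1.00 to 7.09 on plates 3 and 7. It rose by 2.94 ± 0.48 (adjusted p = 0.0102), a call lost without plate 1 or plate 5, and was at 0.65 at 1000 µM in the same fit. The log2 fold change of Ddit3 was -0.42, 0.38 and 2.64 at 10, 100 and 1000 µM, that of Creld2 -0.16, 0.32 and 1.83, and that of Hnf4a -0.57, -0.67 and -2.27. Without the co-culture library labelled 100 µM of plate 3, Ddit3 was at -0.14 and Creld2 at 0.15 at 100 µM, and Cyp4a2 remained the 1 called probe. Tpm2 had -0.93 at 10 µM and -1.04 at 100 µM, with adjusted p of 0.362 and 0.517. Leaving out plate 3 gave 364 calls at 10 µM, and leaving out the monoculture 10 µM library of plate 7 gave 0.

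**Figure D4:**
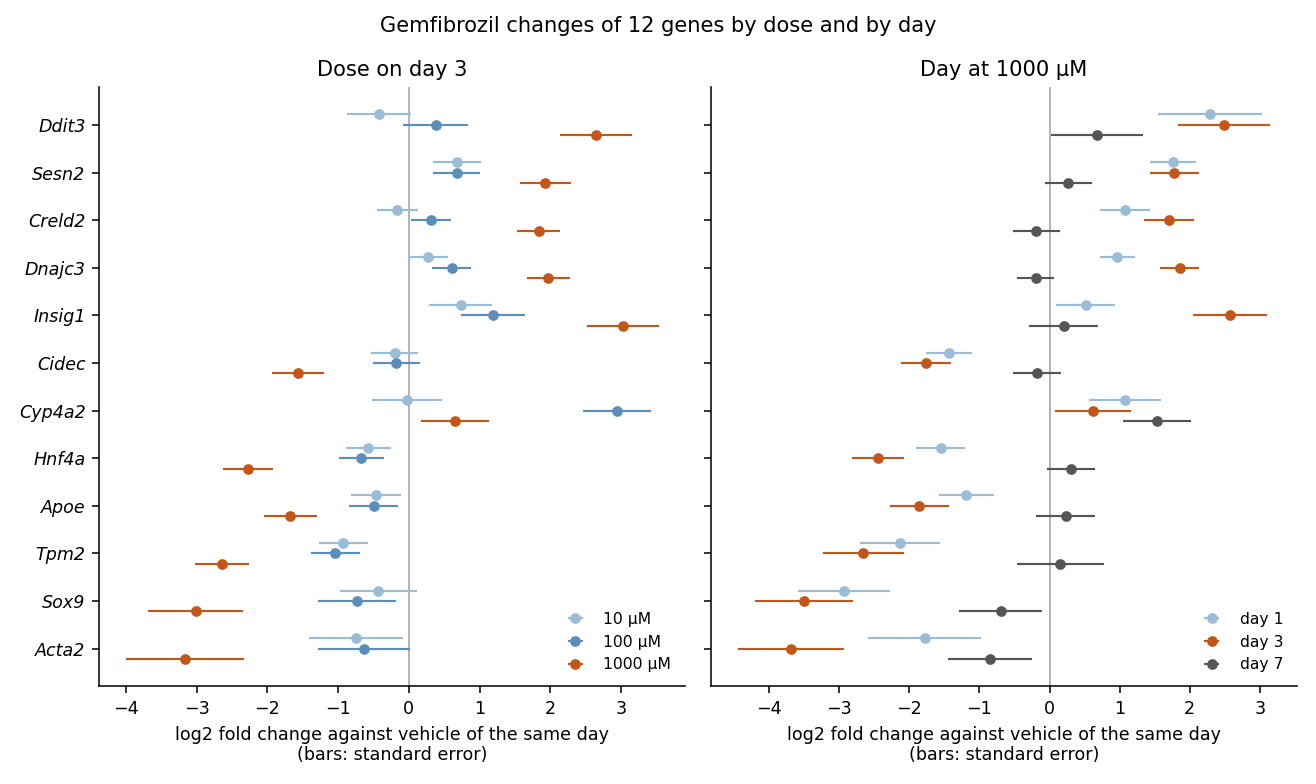
Fitted log2 fold change against vehicle of 12 genes by gemfibrozil dose on day 3 and, at 1000 µM, by day, with bars for the standard error. Ddit3 goes from -0.42 and 0.38 to 2.64 with dose, and Hnf4a from -1.56 on day 1 and -2.45 on day 3 to 0.31 on day 7.

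Plate 9 gave 2 more libraries at 1000 µM, and libraries at 10 µM for a comparison within the plate. Hspa5 had 477 CPM in monoculture and 638 in co-culture at 1000 µM, 69.0 and 52.1 at 10 µM, and 11.3 to 24.0 in the vehicle libraries of the other plates. For Hspa5, plate 9 thus lay above the vehicle libraries of the other plates already at 10 µM. Ddit3 had 583 and 1390 CPM at 1000 µM against 78.4 and 152 at 10 µM, Hnf4a 20.9 and 14.6 against 104 and 91.2, Sox9 9.69 and 11.7 against 87.8 and 325, and Tpm2 23.1 and 29.1 against 41.2 and 65.9. At 10 µM Tpm2 lay below the vehicle libraries of the other plates (175 to 529 CPM) and Hnf4a near their lowest value (98.1). Ddit3 lay within their range (64.2 to 191), and Sox9 only in co-culture (198 to 1370). These vehicle values were scaled without the 10 µM libraries of plate 9. Of the 822 called-higher probes 59.1% had both 1000 µM libraries of plate 9 above both 10 µM libraries of that plate, against 27.6% of the probes not called, and of the 1134 called-lower probes 60.1% had both below, against 24.4%. The 2 doses of plate 9 were not tested against each other.

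The same dose was also sampled on days 1 and 7. In a fit of all 3 days, 188 of 13023 probes (1.44%) differed between the day 3 and day 7 responses, 101 higher and 87 lower on day 3. The chaperone list had median log2 fold changes of 0.90 on day 1 and -0.18 on day 7, the stress response 1.28 and 0.45, the hepatocyte list -0.95 and -0.37 and the cytoskeleton list -1.47 and 0.01. Hnf4a was at -1.56, -2.45 and 0.31 on days 1, 3 and 7, the day 3 response differing from day 7 by -2.76 ± 0.50 (adjusted p = 0.0128). Dnajc3 was at 0.97, 1.86 and -0.20 (difference 2.06 ± 0.38, adjusted p = 0.0128), Il6st, the shared receptor chain of interleukin-6 signalling, at -0.13, 2.03 and -0.99 (adjusted p = 0.0128) and Rab17, a GTPase of polarized epithelial traffic, at -0.68, -1.59 and 0.60 (adjusted p = 0.00224). Ddit3 was at 2.29, 2.49 and 0.68, where the difference did not pass (adjusted p = 0.237). The count was 0 without plate 1 or plate 5, 1379 without plate 3 and 1807 without plate 7. Between day 3 and day 1, 0 of 13023 probes (0%) differed, while 1357 had an unadjusted p below 0.05, DESeq2 called 247, and 100 were called without plate 3.

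No probe had a response that differed between co-culture and monoculture (0 of 10652, 0%), while 102 had an unadjusted p below 0.05 and DESeq2 called 2. For Ddit3 the co-culture minus monoculture difference of the response was -0.30 (95% interval -1.99 to 1.40), for Hspa5 0.20 (-1.51 to 1.90), for Hnf4a -0.68 (-1.90 to 0.55) and for Tpm2 0.34 (-0.29 to 0.97). These intervals include differences larger than a doubling for Ddit3 and Hspa5, so equal responses of the cultures are not shown.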

How the data were processed

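The authors deposited raw TempO-Seq counts per probe, 22253 probes by library, made by BioSpyder per the labels' protocols. The submitters' processing notes name Bowtie, without a version. The sources used here give neither a genome build nor the probes' targets. Of the probe names 18241 matched a reference symbol or synonym, 363 more after a decimal was removed and 3649 did not, and 1018 symbols have several probes. A probe's strand and its sharing of reads with close paralogs are not given.

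Libraries were grouped by their label of culture, compound, dose and day, and the plate number was the replicate number. Same-plate libraries deviated together (mean correlation of deviations 0.241 over 21 pairs, lowest 0.0694, against -0.0769 over 63 other pairs), and culture and plate were blocks. Counts were tested in R 4.3.3 with edgeR 4.0.16: filterByExpr (minimum count 10), TMM, glmQLFit and glmQLFTest, two-sided, Benjamini-Hochberg threshold 0.05 over all tested probes, 9 residual degrees of freedom. The common biological coefficient of variation was 0.516. The SE is the log2 fold change divided by the root of F. CPM are on TMM-scaled libraries, scaled again for each set of libraries compared, with a prior count of 2 for log2 values. On simulated counts 200 genes were changed by the same fold in every treated library. The test recovered 70% of genes raised by a log2 fold of 2, 24% of those raised by 1, 58% of those lowered by 2 and 20% of those lowered by 1. In the data the treated libraries of plate 7 moved less than the others, so these shares do not give the power of this comparison. DESeq2 1.42.0 was an alternative.

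Members and gene lists were chosen with earlier results of these data known. Genes named are those of fixed lists, the lowest p of each list, the 12 highest and 12 lowest fold changes among 983 candidates that averaged 10 CPM or more in either group and had 1 sign in all 7 pairs, and the 3 smallest p of each difference with calls. Further members were named to describe their lists after their values were seen. Promoters (33469) were RefSeq's of build GRCr8. For 3 co-culture libraries of GW7647 description and dose label disagree, and the description was used. Values of some single genes are not reported here, though list counts and medians include them.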

Additional observations from a re-analysis of the deposited data

Results flagged for a closer look

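In 5 of 210 groups tested, 1 library lay far from the rest, where chance gives about 1 in 20. Anxa13 was at 0 CPM in the co-culture vehicle library of plate 5, the next being 6.23. Creld2 was at 112 CPM in the co-culture vehicle library of plate 1, the next being 76.9, and Pdk4 at 2.87 in the same library, the next being 0.553. In the monoculture gemfibrozil library of plate 3, Eno1 was at 1590 CPM, the next being 4480, and Col3a1 at 2.88, the next being 8.86.

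The response at 1000 µM differed between day 3 and day 7 for 16 named genes, beside 188 of 13023 probes (1.44%) in all. Rab17, Hnf4a and Il6st were among the genes named for the smallest p of this same difference, and the others were named by their day 3 values. The difference had 0 calls without plate 1, without plate 5 or with no replicate block. Lower on day 3 than on day 7 were Rab17 (difference -2.20, adjusted p = 0.00224), Hnf4a (-2.76, 0.0128), Afap1l1 (-3.00, 0.0341), Acsm1 (-2.26, 0.0404), Proc (-2.08, 0.0404), Psmc3 (-1.05, 0.0493), Tpm1 (-2.48, 0.0493) and Srebf2 (-0.97, 0.0498). Higher on day 3 were Dnajc3 (2.06, 0.0128), Il6st (3.02, 0.0128), Wdr66 (4.49, 0.0326), Yod1 (3.43, 0.0326), Dcbld2 (3.42, 0.0326), Mdn1 (3.04, 0.0413), Creld2 (1.89, 0.0484) and Raet1l (2.60, 0.0498).

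The plate 9 libraries, outside the test, had both values above all vehicle libraries of the other plates at 428 of 822 called-higher probes (52.1%, against 27.2% of 8696 not called) and below all at 865 of 1134 called-lower probes (76.3%, against 15.8%). At 10 µM the plate 9 libraries were above all vehicle libraries at 37.7% and below at 52.0% of the same probes, against 31.8% and 18.8% of those not called, so plate and treatment cannot be told apart in this comparison.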

How the results depend on the processing

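The 1956 calls at 1000 µM became 3188 with DESeq2, 635 with no replicate block, 790 with detected probes as covariate, 0 in monoculture alone (1453 at an unadjusted p under 0.05), 4 in co-culture alone and 710 on plate 7 alone. They ranged from 158 to 2067 without 1 plate and from 1108 to 2457 without 1 library, the lowest being without the monoculture gemfibrozil (1108) or vehicle (1130) library of plate 5 or the co-culture gemfibrozil library of plate 1 (1109). RLE scaling, no filter, a minimum count of 50, plate 9 added without the block, all day 3 libraries in 1 fit and leaving out the libraries that stand apart gave 1642 to 2108. The cause of these differences was not tested. The culture difference had 2 calls with DESeq2. Day 3 minus day 1 had 1 call with no filter, 247 with DESeq2 and 0 to 100 without 1 plate. Day 3 minus day 7 had 188, then 1596 with DESeq2, 0 with no replicate block and 0 to 1807 without 1 plate. At 100 µM DESeq2 gave 30, no replicate block 0, and 0 to 1 without 1 plate. At 10 µM DESeq2 gave 150, and 0 to 364 without 1 plate. Against GW7647 the 1013 calls became 1788 with DESeq2, 344 with no replicate block and 7 to 2014 without 1 plate. The fit of plate 7 alone had 1 treated and 1 vehicle library of each culture, so its calls rest on little replication. In it 111 higher and 144 lower calls had the opposite sign. Among the genes chosen by the naming rule, those of opposite sign were Acadm (0.0002945), Ddit3 (-0.18) and Trib3 (-0.27). Examples among further list members were Hspa5 (-0.29), Herpud1 (-0.65), Ppp1r15a (-0.75), Fga (0.50), Arg1 (1.12) and Ccl2 (0.82). Of the other named-gene values, 2532 stayed on the same side of the threshold, 530 missed it and 10 newly passed it. The 2532 can include changes of sign where neither fit called the gene. The covariate, plate 7 alone and the fits without libraries that stand apart were chosen after seeing the data. Depth limits genes of a few CPM, whose SE reaches 1 log2 unit.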
